A study of Homo sapiens with 6 samples.

Results

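The genes described here are 50 human genes that build the kinetochore and spindle, run the spindle checkpoint, or take a cell through anaphase and cytokinesis. They were listed by name and function with no threshold on measured values, although earlier results of these data were known when the list was made, and kinesin family genes and cyclins were left out of the list apart from CENPE. All 50 were found in the deposited count table of 58735 annotated genes, and all 50 were among the 14573 genes with enough reads to be tested. The comparison asks what RNA changes go with lowered CBX7, and the cells were 786-O, an established line from a human clear cell renal cell carcinoma. The tested libraries came from 786-O cells labelled sh-CBX7, a short hairpin RNA against CBX7, and the comparison libraries from 786-O cells labelled sh-Control, with 3 libraries each. CBX7 encodes a chromobox subunit of a Polycomb repressive complex, a chromatin regulator that silences genes. The table's own column names call the first group siCBX7, and the labels do not say how many hairpins were used, how long after delivery RNA was taken, or whether libraries came from separate cultures. The p-values below therefore measure the spread between these libraries, which may be technical. RNA was captured on poly-T beads and made into directional libraries.

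During mitosis the kinetochore, a protein assembly on the centromere, attaches each chromosome to spindle microtubules. Unattached kinetochores hold the spindle checkpoint on, which keeps CDC20 from activating the anaphase-promoting complex, a ubiquitin ligase. Once the checkpoint is satisfied, the ligase marks securin for destruction, separase is freed, the cohesin ring is cut and the sister chromatids part. Transcription of many of these genes peaks in G2 and mitosis, driven in part by MYBL2 and FOXM1 acting with the MuvB complex at the cell cycle homology region (CHR) of their promoters, often beside CCAAT boxes bound by the factor NF-Y.

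The libraries held 18868874, 16473407 and 17668422 counts in sh-CBX7 cells, and 16961808, 18006814 and 16384151 counts in sh-Control cells. CBX7 itself had 7.44 ± 0.669 CPM (reads of a gene relative to the library's scaled total) in sh-CBX7 libraries and 12.2 ± 0.983 CPM in sh-Control libraries (SD, n = 3 each), a log2 fold change of -0.71 (edgeR quasi-likelihood test, adjusted p = 5.41e-05). All 6 markers listed for a renal carcinoma line were detected, summing to 2725 to 2931 CPM in sh-CBX7 and 3099.6 to 3128 CPM in sh-Control libraries. Of these, CA12 fell (180.1 CPM in sh-CBX7 and 418 CPM in sh-Control libraries, log2 fold change -1.22, edgeR adjusted p = 1.98e-14), PAX8 fell (-0.32, adjusted p = 2.62e-05), KRT18 rose (0.43, adjusted p = 2.59e-06), and VIM, EPAS1 and NNMT were not called. Of 5 immune markers PTPRC and CD3E had 0 counts in every library, and the 5 summed to at most 0.302 CPM in sh-CBX7 and 0.184 CPM in sh-Control libraries. The 3 endothelial markers summed to 2.48 to 3.40 CPM in sh-CBX7 and 1.62 to 2.33 CPM in sh-Control libraries, with PECAM1 called higher (log2 fold change 0.70, adjusted p = 0.0349) and CDH5 at 0 counts. The 4 fibroblast markers summed to 9.31 to 10.8 CPM in sh-CBX7 and 8.96 to 10.4 CPM in sh-Control libraries, with LUM called higher (0.73), COL1A1 (-1.03) and PDGFRA (-1.88) called lower. The part of these markers in the results was not tested. One sh-Control library, replicate 1, was the lowest of its group for 29 of the 50 genes, against 13 for replicate 2 and 8 for replicate 3. The matching share over all tested genes was not computed. Pairs of libraries were also compared over all genes with at least 20 counts in the pair, by a chi-square of count differences per gene. It was 9.23 and 5.78 for sh-Control replicate 1 against replicates 2 and 3, and 2.85 between replicates 2 and 3.

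Most of the mitotic genes were lower in sh-CBX7 cells, by modest amounts. Of the 50 genes, 40 fell, 2 rose (MYBL2 and CKAP2L) and 8 passed in neither direction at an adjusted p of 0.05. Across all tested genes, 27.2% were called lower and 26.1% higher, and the members' share called lower was 80%. The median log2 fold change was -0.42 over the 50 genes (quartiles -0.61 and -0.26), beside a median of -0.01 over all tested genes (quartiles -0.32 and 0.34). In 38 of the 50 genes every sh-CBX7 library lay below every sh-Control library, in 2 every one lay above, and in 10 the groups overlapped, while 29.9% of all tested genes had every sh-CBX7 library below. Falls of at least 1 on the log2 scale were few: 3 members, ESPL1, TOP2A and NUSAP1, with 3.3% of all tested genes called lower by that much. A further 16 of the called falls lay between -1 and -0.5, and 21 were smaller than 0.5, the smallest being SPC24 at -0.20.

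Added together, the 50 genes took 4806, 4790.0 and 4784 CPM in the sh-CBX7 libraries, against 6286, 6573 and 6457 CPM in the sh-Control libraries. The sum was thus lower in 3 of 3 sh-CBX7 libraries, at 74.5% of the sh-Control mean (1.34-fold lower, log2 difference -0.43). An exact two-sided permutation test over the 6 libraries gave p = 0.1, the smallest value that 3 against 3 libraries allow. In bulk RNA, fewer cells in mitosis and less of these RNAs per cell cannot be told apart.

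**Figure D1:**
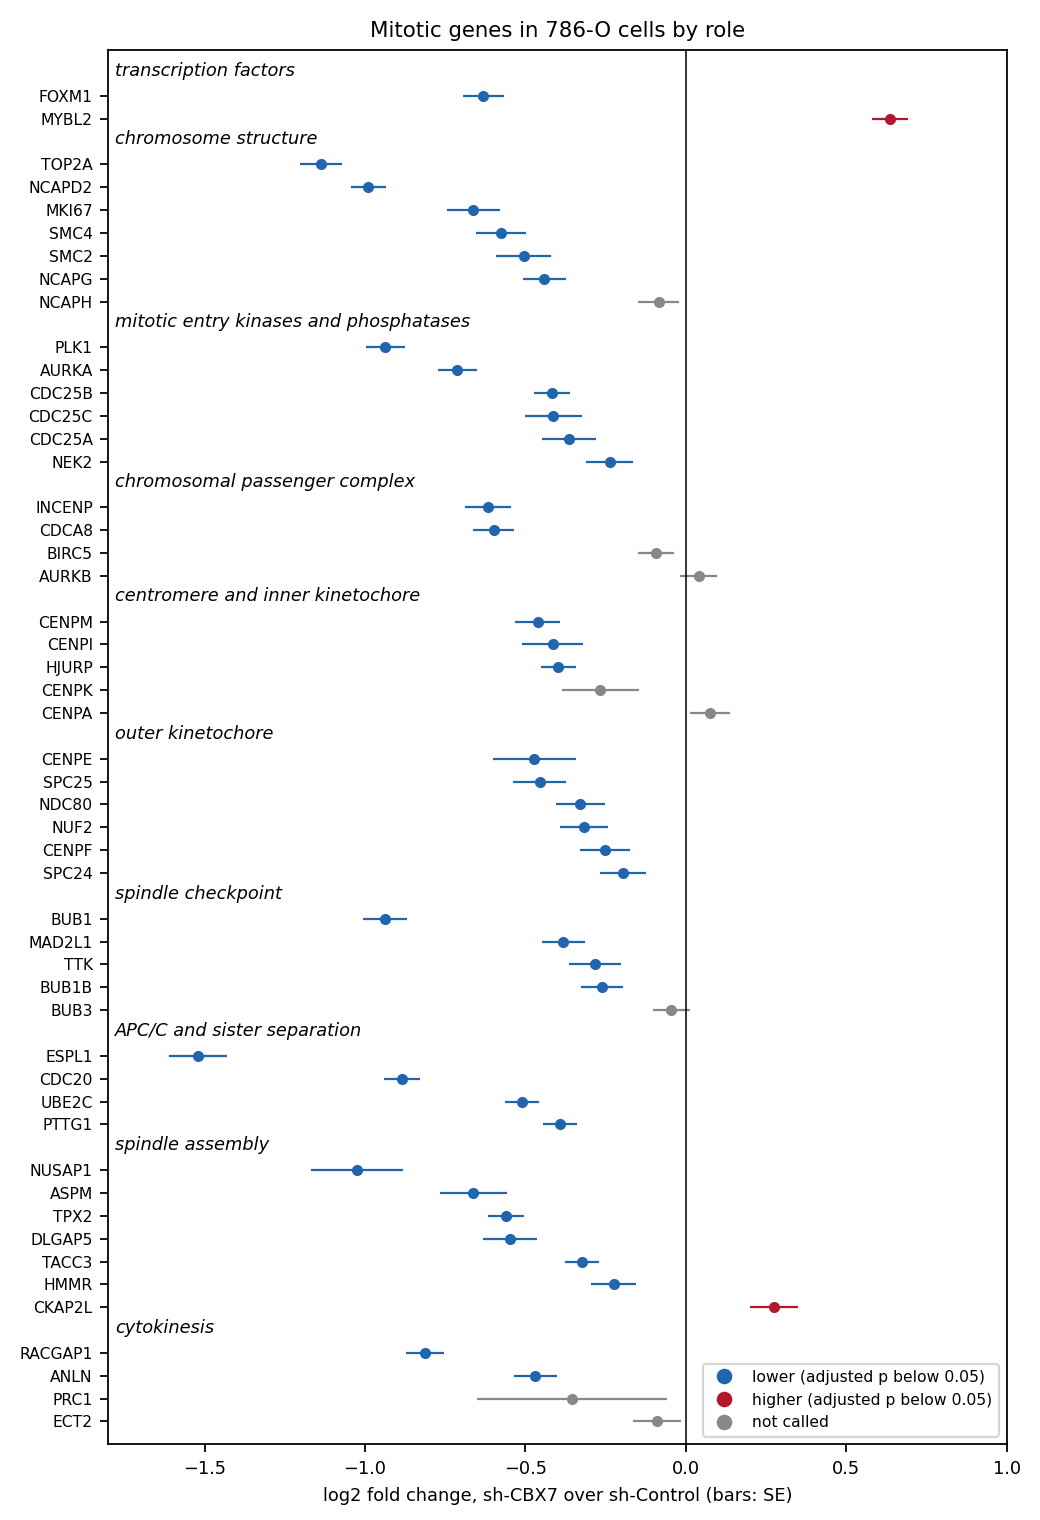
Log2 fold change of each of the 50 genes, sh-CBX7 over sh-Control, with bars of 1 standard error, arranged by role. 40 genes were called lower and lie left of 0, while MYBL2 at 0.64 and CKAP2L at 0.27 were called higher.

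**Figure D2:**
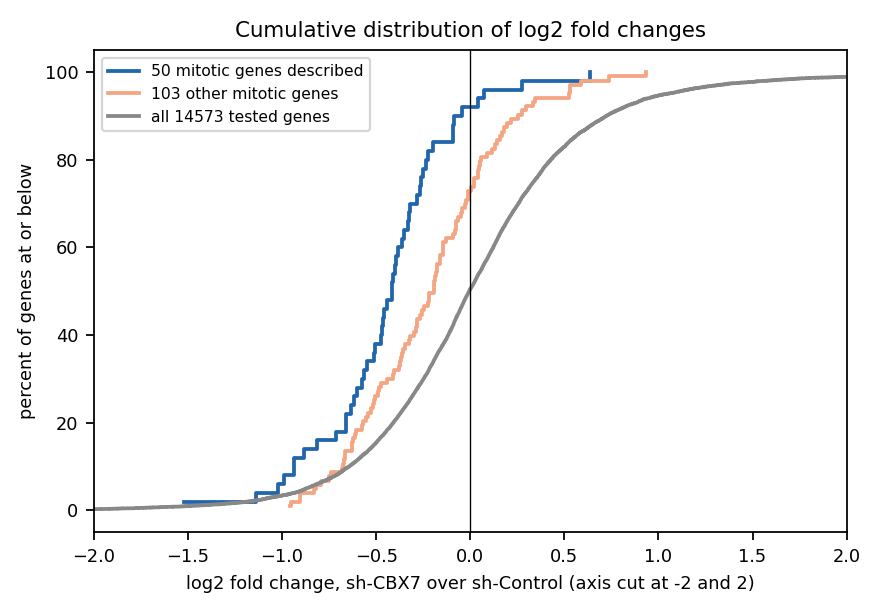
Cumulative percentage of genes (y axis) at or below each log2 fold change (x axis, sh-CBX7 over sh-Control) for the 50 genes, for 103 other mitotic genes and for all 14573 tested genes. The curve of the 50 genes lies to the left over most of its length, with medians of -0.42, -0.19 and -0.01 for the 3 sets.

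Because CHR and CCAAT letters mark the promoters of many G2 and mitotic genes, RefSeq promoter windows (build GRCh38.p14, 250 bases before to 50 after the listed start) were searched for them. Of the 50 genes, 41 had a window in the table, and FOXM1, AURKA, BIRC5, CENPM, BUB3, TTK, UBE2C, TPX2 and RACGAP1 had none. The stretches printed here, 140 bases each and running 5′ to 3′ on the gene's strand to the 20th base after the start, are those of 4 genes that fell by large amounts, of CENPA and CKAP2L, which hold CHR letters and were not called lower, and of MYBL2, which rose. Capitals mark matches on either strand to the box spelled CCAAT and to the CHR. For the CHR the usual letters TTTGAA were searched, and besides them the variant TTCGAA, which reads the same on both strands, and overlaps between matches were allowed.
ESPL1 (chr12:53268179-53268318, plus strand): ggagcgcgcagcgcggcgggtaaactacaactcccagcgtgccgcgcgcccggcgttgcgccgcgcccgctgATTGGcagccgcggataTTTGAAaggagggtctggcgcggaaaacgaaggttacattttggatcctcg
PLK1 (chr16:23678769-23678908, plus strand): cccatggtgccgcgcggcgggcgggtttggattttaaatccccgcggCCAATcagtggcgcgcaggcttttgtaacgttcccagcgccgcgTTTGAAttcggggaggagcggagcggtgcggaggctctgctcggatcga
CDC20 (chr1:43358861-43359000, plus strand): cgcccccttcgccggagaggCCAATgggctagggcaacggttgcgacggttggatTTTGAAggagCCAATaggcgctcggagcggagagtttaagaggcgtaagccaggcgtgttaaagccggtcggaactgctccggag
BUB1 (chr2:110678044-110678183, minus strand): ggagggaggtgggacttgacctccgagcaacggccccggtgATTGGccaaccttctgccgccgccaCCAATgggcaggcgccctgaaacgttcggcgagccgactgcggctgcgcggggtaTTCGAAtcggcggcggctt
CENPA (chr2:26785936-26786075, plus strand): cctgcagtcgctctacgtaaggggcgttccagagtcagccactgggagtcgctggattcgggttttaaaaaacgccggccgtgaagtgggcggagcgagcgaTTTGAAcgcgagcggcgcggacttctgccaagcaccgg
CKAP2L (chr2:112764590-112764729, minus strand): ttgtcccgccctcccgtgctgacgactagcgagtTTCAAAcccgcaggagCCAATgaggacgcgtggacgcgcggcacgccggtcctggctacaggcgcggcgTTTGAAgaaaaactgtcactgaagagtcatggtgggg
MYBL2 (chr20:43666994-43667133, plus strand): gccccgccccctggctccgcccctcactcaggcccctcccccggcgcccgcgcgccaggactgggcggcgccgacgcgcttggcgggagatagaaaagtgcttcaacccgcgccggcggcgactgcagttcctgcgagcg

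In the stretches shown, ESPL1 and PLK1 each carry 1 CCAAT and 1 CHR match, and CDC20 and BUB1 each carry 2 CCAAT and 1 CHR match. In its stretch CENPA carries 1 CHR match and no CCAAT, CKAP2L carries 2 CHR matches and 1 CCAAT, and MYBL2 carries neither. The whole window of CENPA holds 2 CCAAT matches, both upstream of the stretch shown. CENPA therefore counts below among the genes with both kinds, while the whole window of MYBL2 holds neither. Over the whole windows, CHR letters were found in 28 of 41 genes (68.29%), beside 1133 of 10368 tested genes with a window (10.93%) and 16.62% of all 27305 genes in the table. CCAAT letters were also in 28 of 41 windows (68.29%), beside 36.59% of tested genes, and both kinds were in 21 of 41 (51.22%), beside 4.688%. The 21 genes with both kinds had a median log2 fold change of -0.60 (range -1.52 to 0.27), and the 28 with CHR letters -0.49 (-1.52 to 0.27). The 13 without CHR letters had a median of -0.32 (-0.47 to 0.64). Only the first listed start of each gene was used for these sets, and differences between them were not tested. The 28 genes with CCAAT letters had a median of -0.40 and the 13 without them -0.41, and the 6 genes with neither kind also -0.41. Over all tested genes the median was -0.04 for those with both kinds and -0.02 for those with neither. A match is a run of letters and not a measured binding site.

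**Figure D3:**
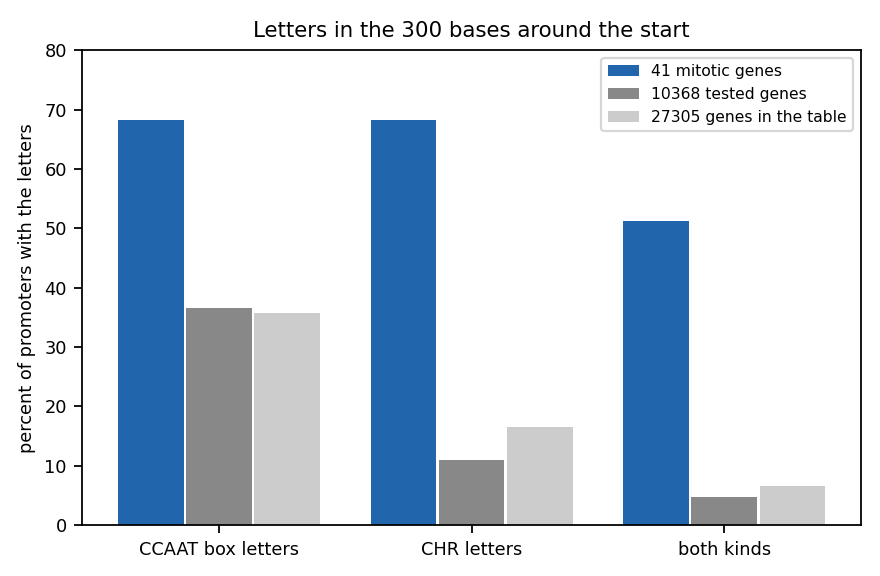
Percentage of 300-base promoter windows (y axis) that hold CCAAT letters, CHR letters or both, for the 41 mitotic genes with a window, 10368 tested genes and all 27305 genes of the RefSeq table. CHR letters stand in 68.29% of the mitotic genes' windows and in 10.93% of the tested genes' windows.

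The 2 transcription factors of the program moved in opposite directions. FOXM1 (ENSG00000111206), a forkhead activator of G2 and mitotic genes, had 60.3, 55.3 and 59.4 CPM in sh-CBX7 libraries, against 92.8, 89.2 and 89.3 CPM in sh-Control libraries. It fell 1.55-fold with no overlap between groups (log2 fold change -0.63, SE 0.06, edgeR adjusted p = 2.13e-08). MYBL2 (ENSG00000101057, chromosome 20), the B-Myb activator that binds MuvB, had 439, 413 and 420.0 CPM in sh-CBX7 libraries, against 289, 261 and 269 CPM in sh-Control libraries. Every sh-CBX7 library lay above every sh-Control library, and MYBL2 rose by 0.64 on the log2 scale (SE 0.06, edgeR adjusted p = 2.05e-09), the highest value of the 50. Among the other MuvB genes, 2 of 5 fell and 2 rose, beside 27.2% of all tested genes called lower and 26.1% called higher. RBBP4, a histone-binding subunit of MuvB and of several chromatin complexes, averaged 176 CPM in sh-CBX7 libraries and 105 CPM in sh-Control libraries (log2 fold change 0.74, edgeR adjusted p = 2.76e-09), and LIN52, another MuvB subunit, averaged 5.79 CPM in sh-CBX7 and 9.30 CPM in sh-Control libraries (-0.68, adjusted p = 0.000341).

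Sister separation held the lowest value of the list, and all 4 of its genes fell (median -0.70), beside 27.2% of all tested genes. ESPL1 (ENSG00000135476, chromosome 12), which encodes separase, the protease that cuts cohesin, had 20.9, 16.7 and 21.9 CPM in sh-CBX7 libraries, against 59.7, 56.4 and 54.9 CPM in sh-Control libraries. The groups were far apart, 19.8 ± 2.73 CPM in sh-CBX7 and 57.0 ± 2.50 CPM in sh-Control cells (SD, n = 3 each), a 2.87-fold fall (log2 fold change -1.52, SE 0.09, edgeR adjusted p = 2.96e-12). CDC20, the activator of the anaphase-promoting complex, had 292, 275 and 289 CPM in sh-CBX7 libraries, against 559, 502 and 520.5 CPM in sh-Control libraries, and fell 1.85-fold (log2 fold change -0.89, adjusted p = 8.3e-12). UBE2C, which supplies ubiquitin to the complex, averaged 196 ± 2.95 CPM in sh-CBX7 and 279.8 ± 1.60 CPM in sh-Control libraries (log2 fold change -0.51, adjusted p = 3.01e-08). PTTG1, the securin that holds separase inactive, had 187, 188 and 187 CPM in sh-CBX7 libraries, against 248, 248 and 243 CPM in sh-Control libraries. Its libraries agreed closely within each group and its fold change was nearer 0 than that of separase (log2 fold change -0.39, SE 0.05, adjusted p = 1.62e-06). The difference between ESPL1 and PTTG1 was not tested.

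**Figure D4:**
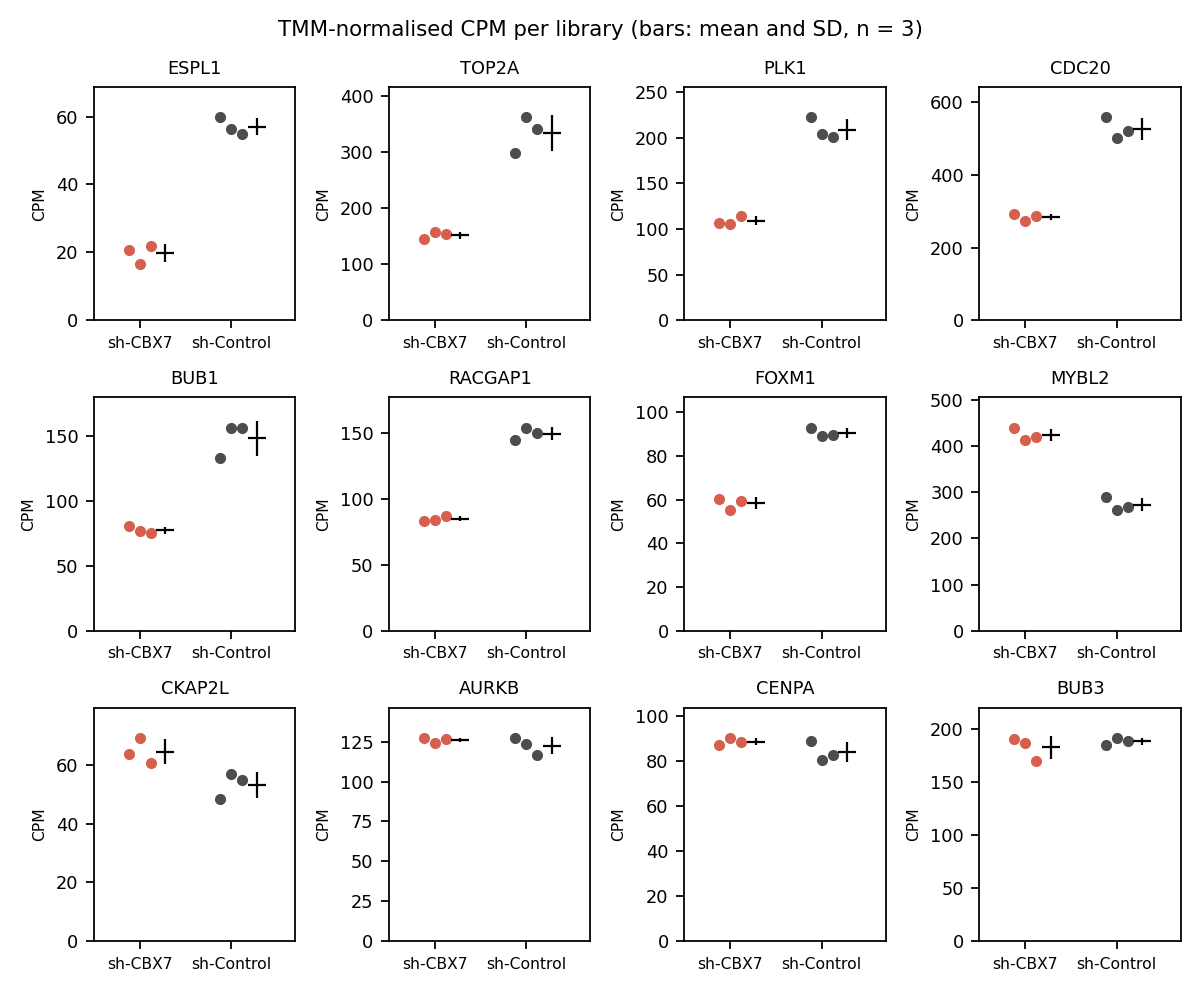
TMM-scaled CPM of 12 genes in each library, sh-CBX7 left of sh-Control, with 1 point per library and bars for the mean and SD (n = 3). ESPL1 lies at 16.7 to 21.9 CPM in sh-CBX7 cells and at 54.9 to 59.7 CPM in sh-Control cells, MYBL2 is higher in sh-CBX7 cells, and AURKB, CENPA and BUB3 overlap.

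Chromosome structure genes fell in 6 of 7 cases (median -0.58), beside 27.2% of all tested genes. TOP2A, the topoisomerase that untangles sister DNA, had 145, 156 and 153 CPM in sh-CBX7 libraries, against 298, 361 and 341 CPM in sh-Control libraries. It fell 2.20-fold, with the lowest sh-Control library still well above the highest sh-CBX7 library (log2 fold change -1.14, SE 0.07, edgeR adjusted p = 2.04e-12). NCAPD2, a condensin I subunit, had 129, 123 and 130.0 CPM in sh-CBX7 libraries, against 253, 259.7 and 246 CPM in sh-Control libraries (log2 fold change -0.99, SE 0.06, adjusted p = 1.4e-12). Condensin I compacts mitotic chromosomes, and the log2 fold changes of its 5 subunits ranged from -0.99 to -0.08. NCAPG fell by 0.44 on the log2 scale (adjusted p = 8.17e-06), and the SMC2 and SMC4 arms, which condensin II shares, fell by 0.51 (adjusted p = 3.51e-05) and 0.58 (adjusted p = 1.85e-06). NCAPH, the kleisin that closes the condensin I ring, had 78.4, 82.2 and 76.5 CPM in sh-CBX7 libraries, against 79.1, 89.0 and 83.1 CPM in sh-Control libraries, which overlap (log2 fold change -0.08, adjusted p = 0.284). MKI67, whose product coats mitotic chromosomes and is the Ki-67 proliferation marker, averaged 79.2 ± 6.37 CPM in sh-CBX7 and 125 ± 17.5 CPM in sh-Control libraries (log2 fold change -0.66, adjusted p = 5.29e-07).

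All 6 mitotic entry kinases and phosphatases fell (median -0.42), beside 27.2% of all tested genes. PLK1, a kinase with roles from entry to cytokinesis, had 107, 106 and 114 CPM in sh-CBX7 libraries, against 222, 203 and 201 CPM in sh-Control libraries. That is 1.91-fold lower, with no overlap (log2 fold change -0.94, SE 0.06, edgeR adjusted p = 1.46e-11). AURKA, the spindle pole kinase that activates PLK1, had 110.4, 103 and 96.3 CPM in sh-CBX7 libraries, against 165, 172 and 170.3 CPM in sh-Control libraries (log2 fold change -0.71, SE 0.06, adjusted p = 1.77e-09). NEK2, a kinase that splits the centrosomes, had 50.1, 57.5 and 62.2 CPM in sh-CBX7 libraries, against 65.5, 67.0 and 67.6 CPM in sh-Control libraries. Its groups came close without overlapping (log2 fold change -0.24, adjusted p = 0.00988), and the call was lost without sh-CBX7 replicate 1 (adjusted p = 0.104). The CDC25 phosphatases, which remove inhibitory phosphates from cyclin-dependent kinases, all fell, CDC25A by 0.36, CDC25B by 0.42 and CDC25C by 0.41 on the log2 scale (adjusted p = 0.000838, 1.47e-06 and 0.000471).

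The chromosomal passenger complex, which corrects faulty attachments and later guides cytokinesis, was split. Of its 4 genes, 2 were called lower, beside 27.2% of all tested genes. CDCA8, the borealin subunit, had 83.0, 73.0 and 77.9 CPM in sh-CBX7 libraries, against 118, 115 and 122 CPM in sh-Control libraries (log2 fold change -0.60, edgeR adjusted p = 4.87e-08). INCENP, its scaffold, had 46.2, 42.1 and 46.9 CPM in sh-CBX7 libraries, against 70.7, 64.4 and 72.7 CPM in sh-Control libraries (log2 fold change -0.62, adjusted p = 1.7e-07). Neither of these genes had overlapping groups. AURKB, its kinase, had 127, 124 and 127 CPM in sh-CBX7 libraries, against 127, 124 and 117 CPM in sh-Control libraries (log2 fold change 0.04, SE 0.06, adjusted p = 0.589). BIRC5, the survivin subunit, averaged 257 ± 4.06 CPM in sh-CBX7 and 274 ± 15.7 CPM in sh-Control libraries (log2 fold change -0.09, adjusted p = 0.168). For both the groups overlapped.

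At the centromere and inner kinetochore, 3 of 5 genes fell (median -0.40), beside 27.2% of all tested genes. HJURP, the chaperone that loads CENP-A, had 168, 165 and 169 CPM in sh-CBX7 libraries, against 216, 225 and 219.6 CPM in sh-Control libraries (log2 fold change -0.40, SE 0.05, edgeR adjusted p = 1.79e-06). CENPA, the histone H3 variant that marks centromeres, had 87.0, 90.2 and 88.4 CPM in sh-CBX7 libraries, against 89.0, 80.4 and 82.9 CPM in sh-Control libraries. The CENPA groups overlapped (log2 fold change 0.07, SE 0.06, adjusted p = 0.332), so the chaperone passed the test and its histone did not, a difference that was not itself tested. CENPM, part of the constitutive centromere network, had 47.1, 43.8 and 47.4 CPM in sh-CBX7 libraries, against 67.4, 60.6 and 62.5 CPM in sh-Control libraries (log2 fold change -0.46, adjusted p = 7.44e-06). CENPI, of the same network, fell by 0.41 on the log2 scale (adjusted p = 0.000844). CENPK, also of that network, had 12.7, 13.2 and 10.3 CPM in sh-CBX7 libraries, against 13.7, 15.6 and 14.1 CPM in sh-Control libraries, which do not overlap, yet missed the threshold (log2 fold change -0.27, adjusted p = 0.0663). It passed without sh-CBX7 replicate 2 (adjusted p = 0.0463) and without sh-Control replicate 1 (adjusted p = 0.0389).

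All 6 outer kinetochore genes fell, by small amounts (median -0.32), beside 27.2% of all tested genes. The 4 subunits of the NDC80 complex, the main microtubule coupler, lay between -0.46 and -0.20. SPC25 had 29.7, 30.9 and 27.1 CPM in sh-CBX7 libraries, against 43.4, 37.6 and 39.3 CPM in sh-Control libraries (log2 fold change -0.46, edgeR adjusted p = 7.77e-05). NDC80 had 55.4, 50.5 and 50.2 CPM in sh-CBX7 libraries, against 60.6, 72.9 and 62.5 CPM in sh-Control libraries (log2 fold change -0.33, adjusted p = 0.000898). NUF2 fell by 0.32 on the log2 scale (adjusted p = 0.00126). In all 4 subunits the groups did not overlap, while 29.9% of all tested genes had every sh-CBX7 library below. SPC24 had 55.6, 51.1 and 54.1 CPM in sh-CBX7 libraries, against 66.5, 58.4 and 59.4 CPM in sh-Control libraries (log2 fold change -0.20, adjusted p = 0.0232). Its call was lost without sh-CBX7 replicate 2 (adjusted p = 0.109), sh-CBX7 replicate 3 (0.054) or sh-Control replicate 1 (0.0802). CENPE, a kinesin motor that carries chromosomes to the equator, had 17.7, 17.9 and 15.3 CPM in sh-CBX7 libraries, against 17.6, 26.7 and 26.4 CPM in sh-Control libraries. Only sh-Control replicate 1 overlapped the sh-CBX7 range (log2 fold change -0.47, adjusted p = 0.00374). CENPF, a large coiled-coil protein of the outer kinetochore, had 64.7, 70.4 and 75.1 CPM in sh-CBX7 libraries, against 72.7, 89.7 and 87.9 CPM in sh-Control libraries, where the same sh-Control library overlapped (log2 fold change -0.25, adjusted p = 0.00876). Its call was lost without sh-CBX7 replicate 1 (adjusted p = 0.0725).

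Of the 5 spindle checkpoint genes, 4 fell (median -0.28), beside 27.2% of all tested genes. BUB1, the kinase that recruits checkpoint proteins and marks the inner centromere, had 80.5, 76.5 and 75.5 CPM in sh-CBX7 libraries, against 133, 156 and 156 CPM in sh-Control libraries. This was 1.91-fold lower (log2 fold change -0.94, SE 0.07, edgeR adjusted p = 9.52e-11). MAD2L1, which encodes MAD2, the inhibitor of CDC20, had 102, 114 and 104 CPM in sh-CBX7 libraries, against 128, 152 and 136 CPM in sh-Control libraries (log2 fold change -0.38, adjusted p = 5.4e-05). BUB1B, the BUBR1 subunit of the same inhibitory complex, fell by 0.26 on the log2 scale (adjusted p = 0.00198). TTK, the MPS1 kinase that starts checkpoint signalling, averaged 48.0 ± 4.27 CPM in sh-CBX7 and 58.3 ± 6.04 CPM in sh-Control libraries, with 1 overlapping pair of libraries (log2 fold change -0.28, adjusted p = 0.00547). BUB3, the partner of BUB1 and BUBR1, had 191, 188 and 171 CPM in sh-CBX7 libraries, against 186, 192 and 189 CPM in sh-Control libraries (log2 fold change -0.04, adjusted p = 0.538). Its groups overlapped.

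Spindle assembly genes fell in 6 of 7 cases (median -0.55), beside 27.2% of all tested genes. TPX2, which activates AURKA on the spindle, had 204, 202 and 199 CPM in sh-CBX7 libraries, against 282, 315 and 296 CPM in sh-Control libraries (log2 fold change -0.56, SE 0.06, edgeR adjusted p = 1.73e-08). NUSAP1, a microtubule bundler, had 7.38, 7.37 and 9.59 CPM in sh-CBX7 libraries, against 13.3, 16.6 and 19.6 CPM in sh-Control libraries (log2 fold change -1.02, SE 0.14, adjusted p = 2.63e-06). It was one of the least counted members, and 62.16% of its exonic bases are shared with another gene annotated on the same strand, so its level is uncertain. ASPM, which focuses spindle poles, fell by 0.66, DLGAP5, a microtubule-stabilizing protein, by 0.55, and TACC3, which crosslinks kinetochore fibres, by 0.32 on the log2 scale (adjusted p = 1.11e-05, 9.25e-06 and 2.42e-05). HMMR, a spindle-associated hyaluronan receptor, had 58.7, 63.3 and 57.6 CPM in sh-CBX7 libraries, against 63.7, 72.1 and 74.1 CPM in sh-Control libraries (log2 fold change -0.22, adjusted p = 0.0105). The HMMR call was lost without sh-CBX7 replicate 3 (adjusted p = 0.0575) and without sh-Control replicate 3 (adjusted p = 0.0708). CKAP2L, a spindle pole protein, had 63.7, 69.1 and 60.8 CPM in sh-CBX7 libraries, against 48.3, 56.8 and 54.8 CPM in sh-Control libraries. It rose without overlap (log2 fold change 0.27, SE 0.07, adjusted p = 0.00348).

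In cytokinesis, 2 of 4 genes fell (median -0.41), beside 27.2% of all tested genes. RACGAP1, the central spindle component that guides the cleavage furrow, had 83.6, 84.1 and 87.4 CPM in sh-CBX7 libraries, against 144, 154 and 150.03 CPM in sh-Control libraries. The difference was 1.76-fold, far beyond the spread within either set of libraries (log2 fold change -0.81, SE 0.06, edgeR adjusted p = 9.53e-11). ANLN, the furrow scaffold anillin, had 188, 192 and 178 CPM in sh-CBX7 libraries, against 228, 279 and 265 CPM in sh-Control libraries (log2 fold change -0.47, adjusted p = 3.07e-06). ECT2, the exchange factor that RACGAP1 activates, averaged 128 ± 5.06 CPM in sh-CBX7 and 136 ± 17.2 CPM in sh-Control libraries, which overlap (log2 fold change -0.09, adjusted p = 0.32). Without sh-Control replicate 1, ECT2 passed (log2 fold change -0.19, adjusted p = 0.00315). PRC1, a crosslinker of central spindle microtubules, had 1.49, 1.27 and 1.41 CPM in sh-CBX7 libraries, against 2.16, 1.76 and 1.41 CPM in sh-Control libraries (log2 fold change -0.35, SE 0.30, adjusted p = 0.33). It was the member with the fewest counts, 165 over all 6 libraries, and shares 57.57% of its exonic bases with a same-strand gene that itself had 629 counts, so its value is uncertain.

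**Figure D5:**
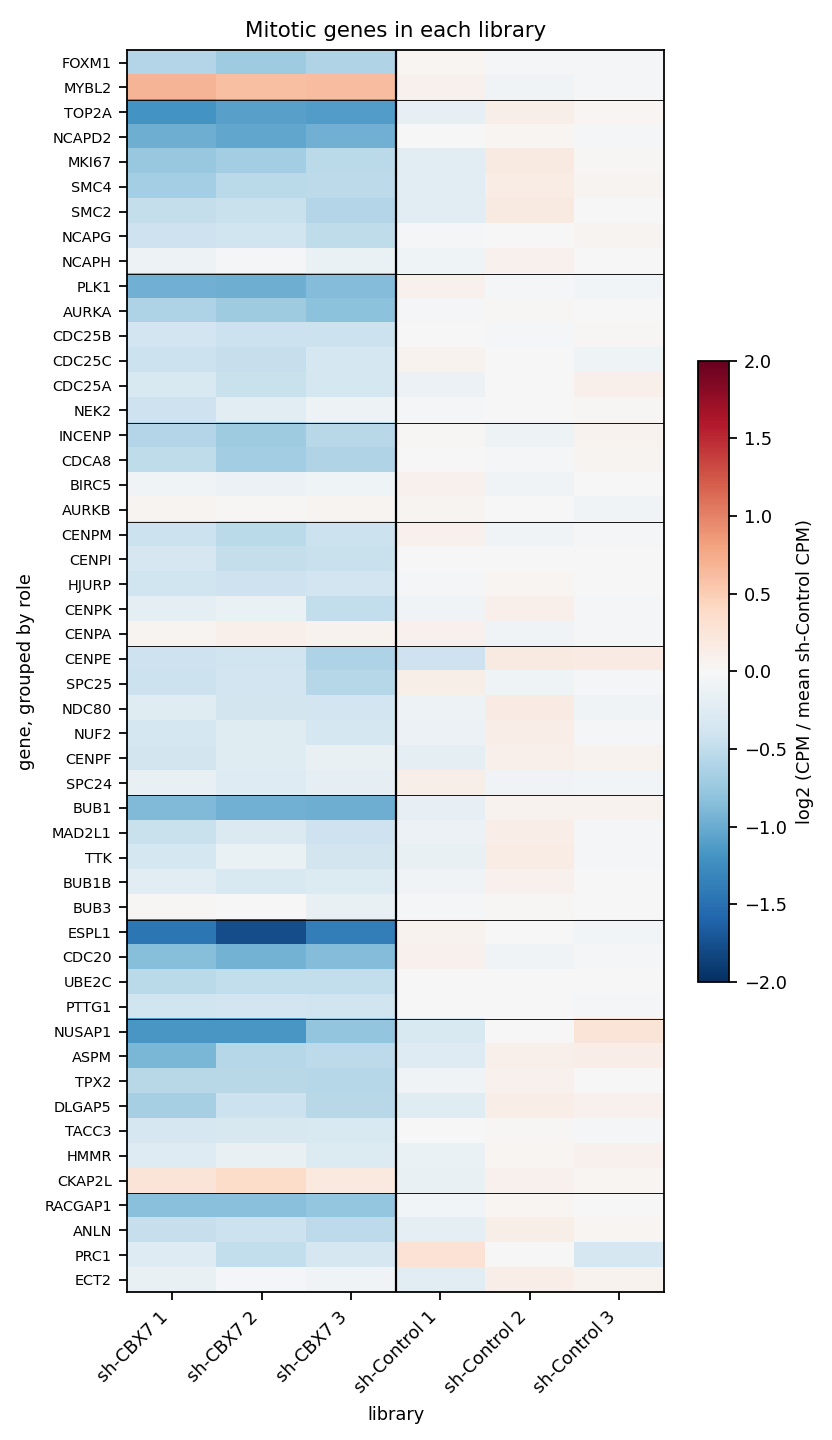
Heat map of the 50 genes (rows, by role) in the 6 libraries (columns, sh-CBX7 left of sh-Control), coloured by log2 of CPM over the sh-Control mean of that gene. Most rows are lower in the 3 sh-CBX7 columns, and the 2 called higher are MYBL2 and CKAP2L. The sh-Control replicate 1 column is the lowest control for 29 genes, with no matching count made over all tested genes.

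Scaled to gene length by dividing CPM by the gene's exonic length in kilobases, the members can be ordered by level. In sh-CBX7 libraries the highest were MYBL2 at 153 ± 4.88, UBE2C at 153 ± 2.29, CDC20 at 139.9 ± 4.45 and PTTG1 at 93.1 ± 0.228 (SD, n = 3), and the libraries of MYBL2 and UBE2C overlapped. In sh-Control libraries the same 4 genes led in another order, CDC20 at 259 ± 14.3, UBE2C at 218 ± 1.24, PTTG1 at 122 ± 1.57 and MYBL2 at 98.4 ± 5.24. MYBL2 was thus first of 50 in sh-CBX7 cells and the fourth in sh-Control cells.

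A list of 103 other mitotic genes, all tested, had a median fold change nearer 0. Of these, 52 were called lower and 11 higher (median log2 fold change -0.19), against 27.2% and 26.1% of all tested genes. By group, 10 of 16 other spindle genes fell and none rose, led by PIMREG with 66.1 CPM in sh-CBX7 and 128 CPM in sh-Control libraries (log2 fold change -0.95, edgeR adjusted p = 1.3e-10). All 4 other cytokinesis genes fell, led by CIT, the citron kinase, with 18.4 CPM in sh-CBX7 and 35.9 CPM in sh-Control libraries (-0.96, adjusted p = 7.89e-09). Cohesin and its regulators had 5 of 14 lower and none higher, with the smallest p in the ring subunit SMC1A (-0.50, adjusted p = 2.34e-06). Condensin II had 2 of 3 lower, led by NCAPD3 (-0.27, adjusted p = 0.00178).

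The counts of each group below stand beside 27.2% of all tested genes called lower and 26.1% called higher. Among 17 genes of the anaphase-promoting complex and its regulators, 9 fell and 1 rose. UBE2S, which extends the ubiquitin chains that UBE2C starts, averaged 407 ± 24.2 CPM in sh-CBX7 and 725 ± 94.7 CPM in sh-Control libraries (log2 fold change -0.83, edgeR adjusted p = 1.51e-09). The one higher gene was the subunit ANAPC13 (0.22, adjusted p = 0.0434), a call lost when any 1 library was left out (adjusted p = 0.058 to 0.112). Of 18 other outer kinetochore and checkpoint genes, 8 fell and 3 rose. SPAG5, the spindle protein astrin, averaged 51.7 CPM in sh-CBX7 and 96.9 CPM in sh-Control libraries (-0.91, adjusted p = 4.5e-10), while ZW10, which brings dynein to kinetochores, averaged 18.7 ± 1.12 CPM in sh-CBX7 and 9.77 ± 1.07 CPM in sh-Control libraries (0.94, adjusted p = 4.35e-07). Of 15 other inner kinetochore genes, 7 fell and 1 rose. CENPO had the smallest p of the falls (-0.74, adjusted p = 1.62e-07), and the gene that rose was CENPQ (0.53, adjusted p = 8.81e-05). CENPO and CENPQ encode subunits of the same subcomplex. Of 11 other entry regulators, 5 fell and 4 rose. PKMYT1, a kinase that holds CDK1 inactive, had the smallest p of the falls (-0.41, adjusted p = 3.68e-05). ENSA, an inhibitor of the phosphatase PP2A, had the smallest p of the rises (161 CPM in sh-CBX7 and 107 CPM in sh-Control libraries, log2 fold change 0.59, adjusted p = 1.31e-08).

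Shared sequence limits few of these values. In the annotation, 32 of the 50 members share no exonic base with another gene, 3 share over 10% with a gene on the same strand (NUSAP1, PRC1 and BUB1B) and 4 share over 10% with a gene on the opposite strand (FOXM1, NCAPG, SMC4 and PLK1). The libraries were directional, but the strand setting of the counting is not given in the sources used here, so reads of those 4 and of their antisense partners may not be told apart. Among pseudogene copies named after members, the most counted, CDC20P1, had 29 counts, 0.069% of those of CDC20. The letters CTCTGCT, which went with lower values in earlier results of these data, stand in the annotated 3′ UTR of 6 of the 50 members (12%), beside 20.94% of tested genes with a UTR. Those 6 members (FOXM1, MKI67, RACGAP1, SMC2, SPC24 and TOP2A) had a median log2 fold change of -0.65 and the other 44 members one of -0.41. The 6 also had longer 3′ UTRs, with a median of 1397.5 bases against 598.5 bases. Over all tested genes with a UTR, the median log2 fold change was -0.13 with the letters and 0.01 without them. As the letters were known from earlier results of these data, that contrast is not independent of them. Median UTR lengths there were 2502 and 902 bases. The part of these letters or of UTR length in the result was not tested.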

How the data were processed

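RNA-seq of 6 libraries was deposited by the authors as 1 table of raw read counts per gene. The submitters' processing notes list featureCounts 1.5.0-p3 and HISAT2 2.0.5, beside the read checker FastQC and the trimmer Trimmomatic. They name build hg19, although the table's gene coordinates are those of GRCh38, which is the build of every coordinate given here. The members and the other gene lists were chosen with earlier results of these data known. Groups were taken from the labels, and table columns were matched to them by name. Counts were scaled by TMM, filtered with filterByExpr (minimum count 10) and tested with edgeR 4.0.16 in R 4.3.3 by the quasi-likelihood test without pairing, over all 14573 genes kept. P-values were adjusted over all of these by Benjamini-Hochberg, and a call needs an adjusted p under 0.05. Values per library are CPM on TMM-scaled library sizes. Single values were compared by an exact permutation test. Every member is named with its fold change. Values per library are given by role for the 2 members with the smallest p and the 1 with the largest. Some others with overlapping libraries or an unstable call have them too, while BIRC5, TTK and ECT2 have a mean and SD. For other mitotic genes the called gene with the smallest p in each direction is named. Alternatives used other scalings, other filters, DESeq2 1.42.0, limma 3.58.1 (voom), the replicate number as a block and each library left out. The code was tested on simulated data. It called 61.6% of 99 genes given a log2 change of 0.5, 84% of 100 given 1, and 0.127% of those left unchanged. Far fewer genes were changed there than the 3967 called lower here, so these shares need not hold for the real libraries. Same-numbered libraries' deviations correlated weakly, at 0.06, 0.06 and 0.04, and those of other pairs at -0.05 to -0.01. Whether same-numbered libraries are pairs is not known, and the main fit did not pair them. No library was found to be a duplicate. Between 16384151 and 18868874 counts per library were available.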

Additional observations from a re-analysis of the deposited data

How the results depend on the processing

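Over 14 alternatives, 43 of the 50 mitotic genes kept both direction and call. BUB3, never called, changed sign under upper quartile scaling (log2 fold change 0.0046) and without sh-CBX7 replicate 3, its values with each library left out being -0.077 to 0.0021. The count called lower was 39 under upper quartile scaling and with DESeq2, 40 in the other scalings, filters and limma voom, and 38 to 41 when each library was left out, and 2 were higher in each of these. The other 6 exceptions were SPC24, NEK2, CENPF and HMMR, which lost the call in at least one alternative, and CENPK and ECT2, which gained it. SPC24 also missed the threshold under upper quartile scaling (adjusted p = 0.0837) and with DESeq2 (adjusted p = 0.0565). Upper quartile scaling moved the median log2 fold change of the 50 genes to -0.37, and that of all tested genes to 0.04. Each library left out gave a median of -0.44 to -0.41 and a log2 difference of the summed CPM of -0.44 to -0.41. With the replicate block the fit called 41 members lower and 2 higher (median -0.42), with CENPK the one gained (adjusted p = 0.0474), and the block fit changed no other member's call. Over all tested genes the block fit called 4126 lower and 3972 higher, against 3967 and 3799 without the block. Each library's deviations correlated best with those of its own number, though weakly, at 0.06, 0.06 and 0.04, while the other correlations were negative. Whether same-numbered libraries are pairs was not settled. The labels give no pairing. CCAAT or CHR letters were in 35 of 41 promoters, in 34 with 200-base windows and, chosen after seeing the data, in 37 when any listed start counted. Precision is limited by 3 libraries a group, and PRC1 had 165 counts in all.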
